A study of Mus musculus with 6 samples.

Results

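Voltage-gated sodium, potassium and calcium channel genes were compared between Control and Y641-F 4T1 cells. The members were all protein-coding genes of the count table whose symbols name a sodium channel subunit (*Scn*), a potassium channel or its auxiliary subunit (*Kcn*), a calcium channel subunit (*Cacn*) or a hyperpolarization-activated channel (*Hcn*). The *Kcn* symbols also take in leak, inwardly rectifying and calcium-activated channels, whose gating is not by voltage alone. There were 138 such genes among 40205 genes in the table. Of these, 99 had at least 0.1 CPM (counts relative to library size) in at least 3 libraries and were tested, and 39 were below that filter. The untested members had at most 14 counts in any library, 28 members did not exceed 3 counts in any library, and 2 had no count at all.

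The RNA came from 4T1, a mouse mammary carcinoma line labelled as epithelial. Control cells (genotype label WT) carried the empty retroviral vector MSCV, and Y641-F cells carried EZH2 with the catalytic-domain change Y641-F, which makes this H3K27 methyltransferase hyperactive. The *Ezh2* transcript did not separate the groups. *Ezh2* had a log2 fold change of 0.055 (95% interval -0.17 to 0.28, edgeR adjusted p = 0.730) and its counts overlapped, from 3574 to 4350 in Control and from 3354 to 4196 in Y641-F libraries. No source used here gives the species of the construct, and whether its reads map to the mouse gene was not tested, so these values do not check the labels. At the protein level, the paper reports EZH2 overexpression in the Y641-F line by western blot. Each group had 3 libraries, which the paper calls biological replicates, and p-values therefore measure the spread between these replicates. No source used here says whether the libraries of a group came from separate transductions. If they did not, a difference between the derived lines and an effect of EZH2 Y641-F cannot be told apart. The methods are not uniform on drug selection, with puromycin named for all lines in one place and hygromycin for the Y641-F line in another, so a difference in selection drug, if there was one, and EZH2 Y641-F cannot be told apart.

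Voltage-gated channels open when the membrane potential changes and pass sodium, potassium or calcium ions along their gradients. Pore-forming alpha subunits decide which ion passes, while auxiliary beta, gamma and alpha2delta subunits set how many channels reach the surface and how fast they open and close. Excitable cells use them for action potentials. In epithelial and carcinoma cells, potassium channels are better known for setting the resting potential, cell volume and calcium entry, and several channel genes are repressed outside neurons.

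*Scn2b* and *Cacna1f* had the largest fall and the largest rise among the channel genes that passed the test, and *Cacnb3* was the most abundant member per length that fell. The sequences around their start sites are therefore shown first, from 250 bases before to 50 bases after the start, as given by RefSeq (table built on GRCm38.p6). Each window matched GRCm39 exactly at 1 place, and those positions are given. Capitals mark CpG dinucleotides, the usual sites of DNA methylation.
Scn2b (chr9:45028924-45029223, plus strand): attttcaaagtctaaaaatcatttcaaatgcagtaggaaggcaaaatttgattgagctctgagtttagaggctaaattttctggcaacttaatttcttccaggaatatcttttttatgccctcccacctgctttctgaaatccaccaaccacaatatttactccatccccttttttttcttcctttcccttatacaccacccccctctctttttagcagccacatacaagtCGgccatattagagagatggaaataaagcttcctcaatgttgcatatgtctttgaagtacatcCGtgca
Cacna1f (chrX:7473092-7473391, plus strand): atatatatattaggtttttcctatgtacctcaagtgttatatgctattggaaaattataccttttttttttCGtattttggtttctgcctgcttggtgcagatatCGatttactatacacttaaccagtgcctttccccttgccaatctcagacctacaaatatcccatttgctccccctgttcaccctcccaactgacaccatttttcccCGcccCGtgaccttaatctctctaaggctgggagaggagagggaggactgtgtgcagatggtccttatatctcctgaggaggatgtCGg
Cacnb3, upstream start (chr15:98529959-98530258, plus strand): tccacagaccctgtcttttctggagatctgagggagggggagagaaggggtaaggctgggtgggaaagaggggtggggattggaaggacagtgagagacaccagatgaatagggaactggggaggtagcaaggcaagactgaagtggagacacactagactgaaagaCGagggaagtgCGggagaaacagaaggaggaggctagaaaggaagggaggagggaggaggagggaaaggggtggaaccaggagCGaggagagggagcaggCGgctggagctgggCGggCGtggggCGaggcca
Cacnb3, downstream start (chr15:98532398-98532697, plus strand): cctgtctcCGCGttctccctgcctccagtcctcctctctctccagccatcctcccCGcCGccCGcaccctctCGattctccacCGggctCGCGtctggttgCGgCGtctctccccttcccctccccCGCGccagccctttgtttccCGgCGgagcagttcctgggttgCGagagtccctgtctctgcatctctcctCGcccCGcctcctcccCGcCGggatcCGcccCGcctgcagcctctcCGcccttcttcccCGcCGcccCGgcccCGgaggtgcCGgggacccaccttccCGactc
The *Scn2b* window held 2 CpG sites at 38.3% G and C, and 85.9% of all 32851 RefSeq windows of this length held at least as many. The *Cacna1f* window held 5, a number that 62.0% of windows reached. The upstream *Cacnb3* window held 7 CpG sites, which is also the median over all windows, and the downstream window held 29, reached by 12.9%. Such windows were found for 101 of the 138 members, and CpG content was not compared between groups of members.

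Of the 99 channel genes tested, 26 (26.3%) differed at an adjusted p under 0.05 by edgeR's quasi-likelihood test. The share was 31.6% of all genes tested and 36.8% of the protein-coding ones, to which all members belong. Among the 99 members 19 (19.2%) were lower in Y641-F cells and 7 (7.07%) were higher, while all genes split into 16.0% lower and 15.6% higher. The remaining 73 did not pass the test. In bulk RNA, fewer cells of a kind and less RNA per cell cannot be told apart. The median log2 fold change (Y641-F minus Control, as everywhere here) was -0.18 over the tested members and -0.013 over all genes tested. With a mean count of at least 30 it was -0.15 for members and 0.0046 for all genes, and below that count -0.24 and -0.074. Taken per library against the Control mean, the median of the members had an SD of 0.16 between replicates, pooled over both groups. Of the tested members 61.6% had a negative value, against 50.9% of all genes.
Most channel genes were scarce. Their median over the genes of the mean count was 19.3, against 290 for all genes tested, so the background differs with level. Among the 42 members with a mean count of at least 30, 16 (38.1%) passed the test, 12 (28.6%) lower and 4 (9.52%) higher, where 42.2% of all genes at that level did, 21.0% lower and 21.2% higher. Among the 57 scarcer members 10 (17.5%) passed, 7 (12.3%) lower and 3 (5.26%) higher, against 6.62% of all scarce genes, 4.35% lower and 2.27% higher. The values of the groups did not overlap for 35 members (35.4%; 44.5% of all genes), which included all 26 that passed the test. At the study's own thresholds, a log2 fold change of 1 or more in size with an unadjusted p of at most 0.05, 11 members (11.1%) were lower and 4 (4.04%) higher, against 5.76% and 3.40% of all genes. Together these are 15.2% of the members, against 9.16% of all genes. Only *Kcnk3* passed the filter on low counts through its Control libraries alone.

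**Figure D1:**
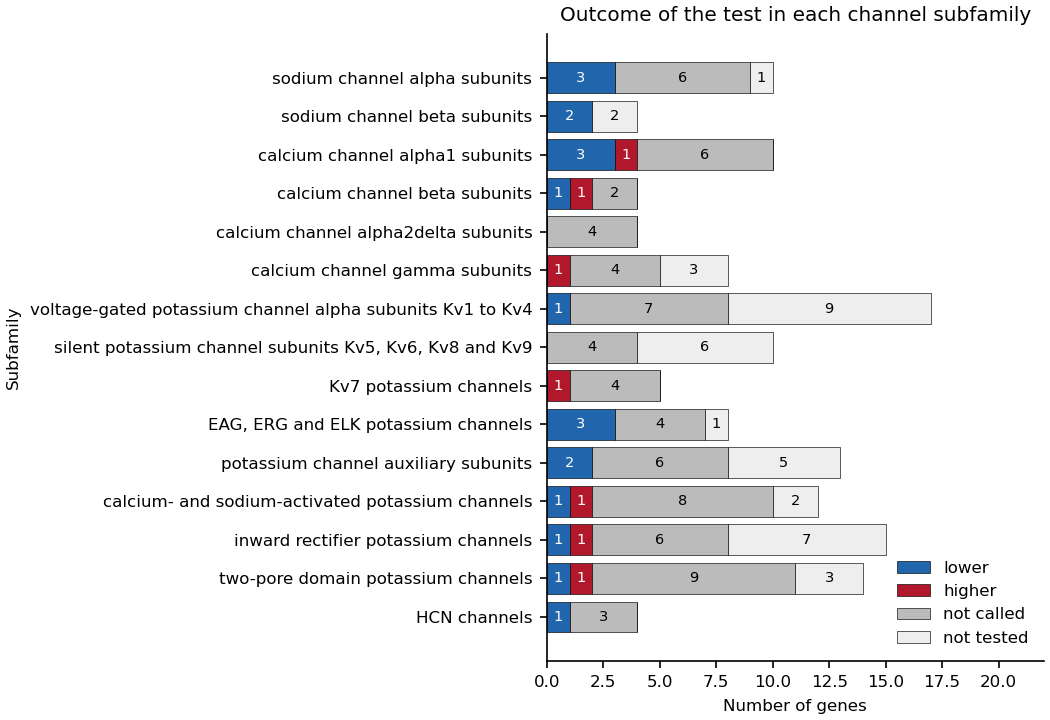
Number of genes in each channel subfamily (horizontal axis) that were lower in Y641-F cells, higher, tested without a call, or not tested for too few counts. The 19 lower genes are spread over 11 of the 15 subfamilies, with 3 each among sodium channel alpha subunits, calcium channel alpha1 subunits and EAG, ERG and ELK channels.

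At low levels both libraries of replicate 2 stood above the others of their group. Over all genes with a mean count below 30, the summed CPM was 2624 in Control replicate 2 and 2659 in Y641-F replicate 2, against 1958 to 2367 in the other libraries. Control replicate 2 was the highest of the 6 libraries for 25 of the 57 scarce members, and Y641-F replicate 2 was the highest for 14. The summed CPM of the scarce members was 19.5, 29.2 and 17.9 in Control and 17.0, 22.8 and 18.2 in Y641-F cells. The summed level of 8 haematopoietic markers was also highest in Control replicate 2, at 19.4, 32.4 and 18.1 CPM in Control and 14.4 to 17.7 CPM in Y641-F cells, with *Ptprc* (CD45) at 24, 85 and 22 counts and then 13, 13 and 18. Of the 8 markers *Cd68* was lower in Y641-F cells and the others did not pass the test. The part of such cells in the values of scarce channel genes was not tested. Without Control replicate 2, 16 members passed the test, 12 lower and 4 higher, with a median log2 fold change of -0.10. Total counts were 32509268 to 36429035 per library. The label epithelial was borne out by all 12 epithelial markers, which summed to 3964 to 4496 CPM in the 6 libraries. Of these 12, *Cldn3* and *Cldn7* were higher in Y641-F cells (log2 fold changes 0.60 and 1.14). *Elf3* and *Krt19* were lower (-0.51 and -1.13), and 8 were not called. Of 12 neuronal markers 6 were tested and 0 passed the test, their sum was 1.69 to 3.61 CPM, the most abundant was *Rbfox3* (12 to 39 counts), and *Nefm* had no count. Of 9 muscle markers only *Tnnt2* was abundant, with 5611 to 7385 counts, and was higher in Y641-F cells (log2 fold change 0.40), and of 9 endothelial and fibroblast markers *Pdgfra* was the most abundant (723 to 1658 counts) and was not called. Of the 6 of these that were tested, *Col1a1*, a collagen of fibroblasts, was lower, with 64, 87 and 50 against 10, 22 and 12 counts and a log2 fold change of -2.08 (edgeR adjusted p = 0.00116), and the other 5 were not called, *Col1a2* among them (13, 15 and 10 against 2, 4 and 6 counts). The list summed to 40.5 to 53.6 CPM in Control and 27.6 to 42.2 CPM in Y641-F cells, and its part in the lower channel genes was not tested.

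The sodium channel genes were lower in Y641-F cells wherever they passed the test. Among 11 such genes tested, 5 were lower, 0 were higher and 6 were not called, where 16.0% of all genes tested were lower and 15.6% higher. *Scn2b* encodes a beta subunit that is linked to the alpha subunit by a disulfide bond and also acts as an adhesion molecule. It had 840, 907 and 739 counts in Control cells and 13, 2 and 4 in Y641-F cells. All Control libraries were thus far above all Y641-F libraries. The mean level was 23.7 ± 1.41 CPM (SD, n = 3) in Control cells against 0.199 ± 0.192 CPM (SD, n = 3) with Y641-F, giving a log2 fold change of -6.90 (95% interval -7.55 to -6.25, edgeR adjusted p = 5.57e-08), or 120-fold lower. Per kilobase of exon it was the fifth most abundant channel gene in Control cells, at 5.08 CPM per kilobase, and held rank 65 in Y641-F cells, at 0.0427. The size of the fall leans on the few counts of Y641-F cells and was -7.99 without Y641-F replicate 1.
*Scn2b* lies on the plus strand of chromosome 9 (GRCm39, 45029080 to 45041368). The antisense gene *Gm10684* spans it on the other strand, with 842, 917 and 747 counts in Control and 17, 20 and 8 in Y641-F cells, close to those of *Scn2b* in the Control libraries. The pair shares no exon bases in GENCODE vM39, but neither the annotation nor the strand setting of the counting is stated, so whether reads were counted for both genes was not tested. The sodium channel gene next to it, *Scn4b*, lies 8.227 kb away and had at most 1 count in any library. None of the other tested neighbours within 100 kb fell. *Mpzl2* and *Mpzl3*, which encode adhesion proteins of epithelia, were higher, with log2 fold changes of 0.46 (edgeR adjusted p = 0.00118) and 0.42 (edgeR adjusted p = 0.00267), and *Jaml* and *Tmprss4* did not pass the test.

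Among the alpha subunits, which form the pore, *Scn3a* and *Scn8a* made up most of the RNA. *Scn3a*, a channel of the embryonic nervous system, had 664, 594 and 526 counts in Control and 336, 419 and 393 in Y641-F cells, for a log2 fold change of -0.54 (standard error, SE, 0.115, edgeR adjusted p = 0.00373). *Scn8a*, the main channel of mature nodes of Ranvier, had 615, 604 and 570 against 388, 449 and 415 counts, a log2 fold change of -0.42 (SE 0.104, edgeR adjusted p = 0.00914). In neither gene did the groups overlap.
The alpha subunit genes that did not pass the test had between 0 and 38 counts per library. *Scn1a* and *Scn2a*, the main alpha subunits of brain neurons, had log2 fold changes of -1.14 (95% interval -2.24 to -0.029) and -0.77 (95% interval -1.86 to 0.31). *Scn9a*, *Scn10a* and *Scn11a*, which are channels of sensory neurons, had -0.18, 0.48 and 0.25, and *Scn4a*, the channel of skeletal muscle, had 0.44. At these counts the 95% intervals ranged from -0.54 to 1.03 for *Scn11a* to -1.64 to 2.60 for *Scn10a*. They cover differences in either direction for all of these genes except *Scn1a*, whose interval lies wholly on the negative side. *Scn7a* was not tested. The summed level of all alpha subunits was 40.8, 41.2 and 38.4 CPM in Control and 27.0, 30.5 and 27.3 CPM in Y641-F cells, without overlap.

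**Figure D2:**
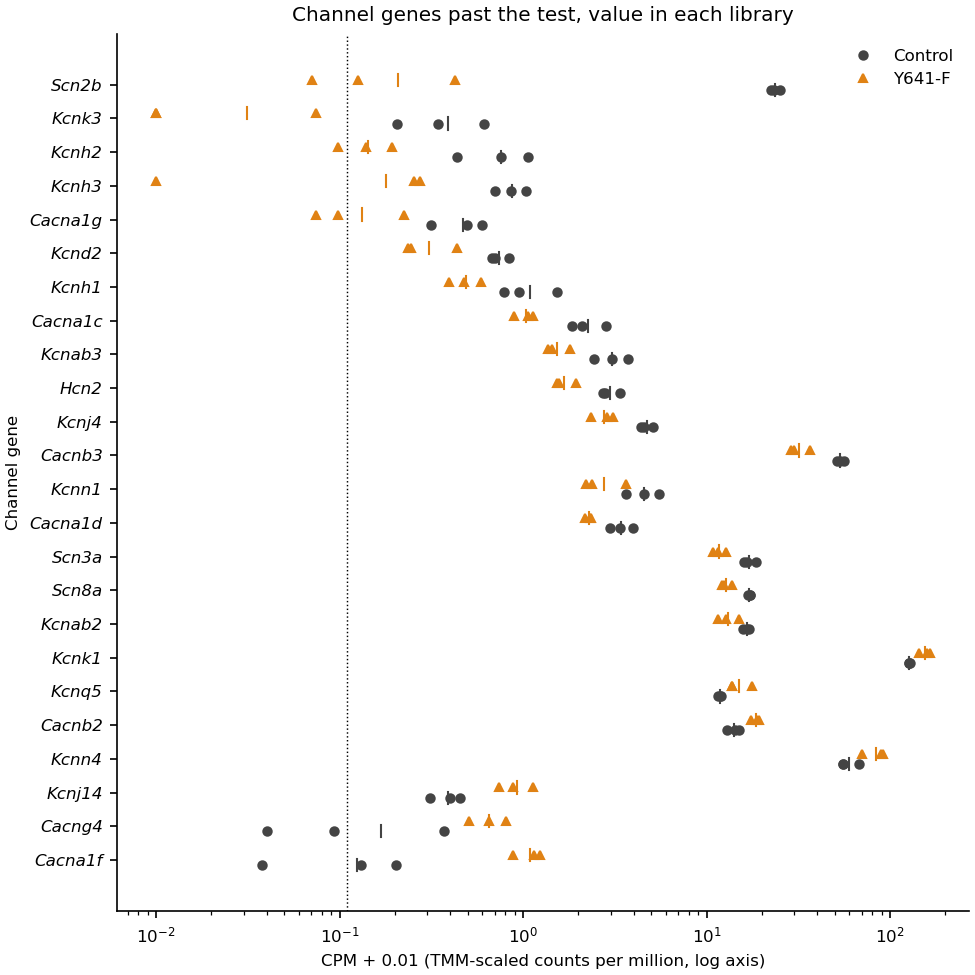
CPM in each library (log axis, with a small constant added so that 0 can be drawn) of 24 of the 26 channel genes that passed the test, ordered by fold change. Circles are Control and triangles Y641-F libraries, short vertical lines are group means, and the dotted line marks the filter of 0.1 CPM. The groups do not overlap for any of these genes, and the gap is widest for *Scn2b*, at 23.7 and 0.199 CPM on average.

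Calcium channel genes moved in both directions. Of the 10 alpha1 subunits, which form the pore, 3 were lower, 1 was higher and 6 were not called. Of all genes tested 16.0% were lower and 15.6% higher. *Cacna1f*, the L-type channel of photoreceptor synapses, had 1, 7 and 4 counts in Control and 27, 40 and 39 in Y641-F cells. All Y641-F libraries were above all Control libraries. Its log2 fold change was 3.19 (95% interval 1.99 to 4.40, edgeR adjusted p = 9.44e-04), or 9.16-fold higher, at a level that remained low (1.08 ± 0.185 CPM in Y641-F cells, SD, n = 3). Without Control replicate 2 it was 3.81. Within 100 kb of *Cacna1f* on the X chromosome (7473322 to 7501435), *Prickle3* and *Plp2* were also higher, with log2 fold changes of 0.54 and 0.40, *Ccdc120* was lower (-0.33), and the flanking genes *Ccdc22* (0.11) and *Syp* (0.24) did not pass the test.
*Cacna1c* and *Cacna1d* are the L-type channels of heart, smooth muscle, neurons and endocrine cells. *Cacna1c* had 66, 101 and 69 counts in Control and 35, 29 and 36 in Y641-F cells, for a log2 fold change of -1.13 (SE 0.274, edgeR adjusted p = 0.00768), and lost its call without Control replicate 2 (-0.94). *Cacna1d* had 121, 142 and 98 against 72, 76 and 74 counts, a log2 fold change of -0.60 (SE 0.201, edgeR adjusted p = 0.0398), and the call was lost when 1 of 4 libraries was left out (Control replicates 1 and 2, Y641-F replicates 1 and 3), with -0.62 to -0.49. Its exons share 1477 bases with *Chdh* on the opposite strand, and *Chdh* itself fell from 129, 149 and 139 to 24, 30 and 30 counts, so reads of *Chdh* counted for *Cacna1d* cannot be told apart from its own.
*Cacna1g*, a T-type channel that opens near the resting potential, had 21, 11 and 16 counts in Control and 2, 7 and 3 in Y641-F cells, for a log2 fold change of -1.88 (SE 0.631, edgeR adjusted p = 0.0398). Leaving out Control replicate 1 or 3 or Y641-F replicate 1 or 3 ended this call (-1.85 to -1.59), and the value was -2.53 without Y641-F replicate 2. The most abundant alpha1 gene per kilobase over the libraries was *Cacna1i*, another T-type channel, at 0.381 CPM per kilobase in Control and 0.440 in Y641-F cells, with a log2 fold change of 0.20 (95% interval -0.17 to 0.58).

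The calcium channel beta subunits bind the alpha1 subunit inside the cell and carry it to the surface. *Cacnb3* was the most abundant of them and the second most abundant channel gene per kilobase in Control cells. It had 2005, 1854 and 1762 counts in Control and 933, 1193 and 982 in Y641-F cells. The lowest Control library was well above the highest Y641-F library. The level fell from 10.6 to 6.28 CPM per kilobase, a log2 fold change of -0.76 (95% interval -0.98 to -0.53, edgeR adjusted p = 1.70e-04). *Cacnb2* moved the other way, from 511, 542 and 424 to 601, 617 and 596 counts, a log2 fold change of 0.40 (SE 0.107, edgeR adjusted p = 0.0135), a call that was lost without Control replicate 3 (0.33). *Cacnb1* and *Cacnb4* did not pass the test. The sum over the 4 beta subunit genes was 70.1 to 75.9 CPM in Control and 49.3 to 61.6 CPM in Y641-F cells.
None of the 4 alpha2delta genes, which encode extracellular subunits, passed the test. *Cacna2d3*, the most abundant of them per kilobase in Control cells, had a log2 fold change of -0.16, which was 0.044 without Y641-F replicate 3. Of 5 tested gamma subunit genes 1 rose, where 15.6% of all genes tested were higher. *Cacng4*, better known as an auxiliary subunit of AMPA-type glutamate receptors, had 3, 13 and 1 counts in Control and 20, 26 and 17 in Y641-F cells, for a log2 fold change of 1.98 (SE 0.688, edgeR adjusted p = 0.0453). Leaving out any library other than Control replicate 2 ended this call (1.51 to 2.14), and without that library the value was 3.39. *Cacng7* had a log2 fold change of -0.74 and did not pass the test (edgeR adjusted p = 0.073).

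**Figure D3:**
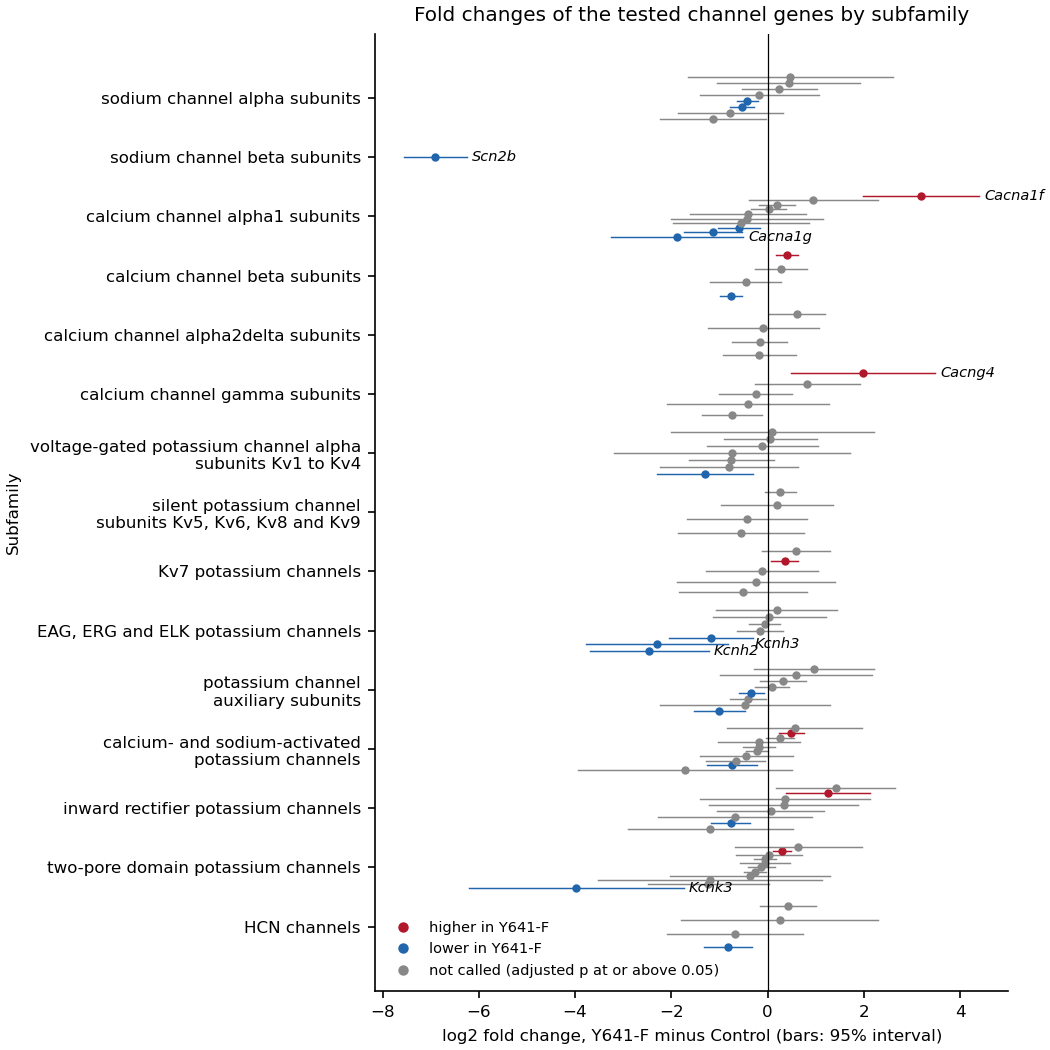
Log2 fold change (horizontal axis, Y641-F minus Control) with its 95% interval for 96 of the 99 tested channel genes, grouped by subfamily, with blue for lower, red for higher and grey for genes that did not pass the test. Most genes lie between -1 and 1 with wide intervals, and *Scn2b* at -6.90 and *Cacna1f* at 3.19 are the outermost.

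Among the potassium channels, *Kcnk1* and *Kcnn4* were the most abundant genes per kilobase of exon, and both were higher in Y641-F cells. *Kcnk1* (TWIK-1), a tandem-pore leak channel, was the most abundant channel gene in both groups, at 50.2 CPM per kilobase in Control and 61.5 in Y641-F cells. This gene alone held 39.9% of the summed CPM per kilobase of all channel genes in Control and 47.9% in Y641-F cells. Its counts were 4555, 4540 and 4228 in Control and 4925, 5400 and 4920 in Y641-F cells, for a log2 fold change of 0.29 (SE 0.0861, edgeR adjusted p = 0.0212). Its log2 fold change was 0.28 to 0.29 without any 1 Control library or without Y641-F replicate 1, but the call was then lost.
*Kcnn4*, the intermediate-conductance calcium-activated channel of epithelia, red cells and lymphocytes, had 2429, 1985 and 1830 counts in Control and 2768, 3006 and 2417 in Y641-F cells. Scaled to library size, its groups did not overlap. Its log2 fold change was 0.50 (95% interval 0.24 to 0.75, edgeR adjusted p = 0.00687), and the gene went from rank 3 to rank 2 per kilobase. *Kcnn1*, a small-conductance relative found mostly in neurons, fell from 197, 131 and 150 to 113, 72 and 81 counts, a log2 fold change of -0.74 (SE 0.236, edgeR adjusted p = 0.0318). This call was lost without Control replicate 1 or 3 or Y641-F replicate 2 or 3 (-0.76 to -0.59). *Kcnma1*, the large-conductance BK channel, had 47, 65 and 64 against 33, 33 and 38 counts and a log2 fold change of -0.66, which did not pass the test (edgeR adjusted p = 0.0951). *Kcnu1*, a pH-sensitive relative of BK known from sperm, stood at 6.61 and 7.93 CPM per kilobase, ranks 4 and 3, with a log2 fold change of 0.26 that did not pass the test.

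**Figure D4:**
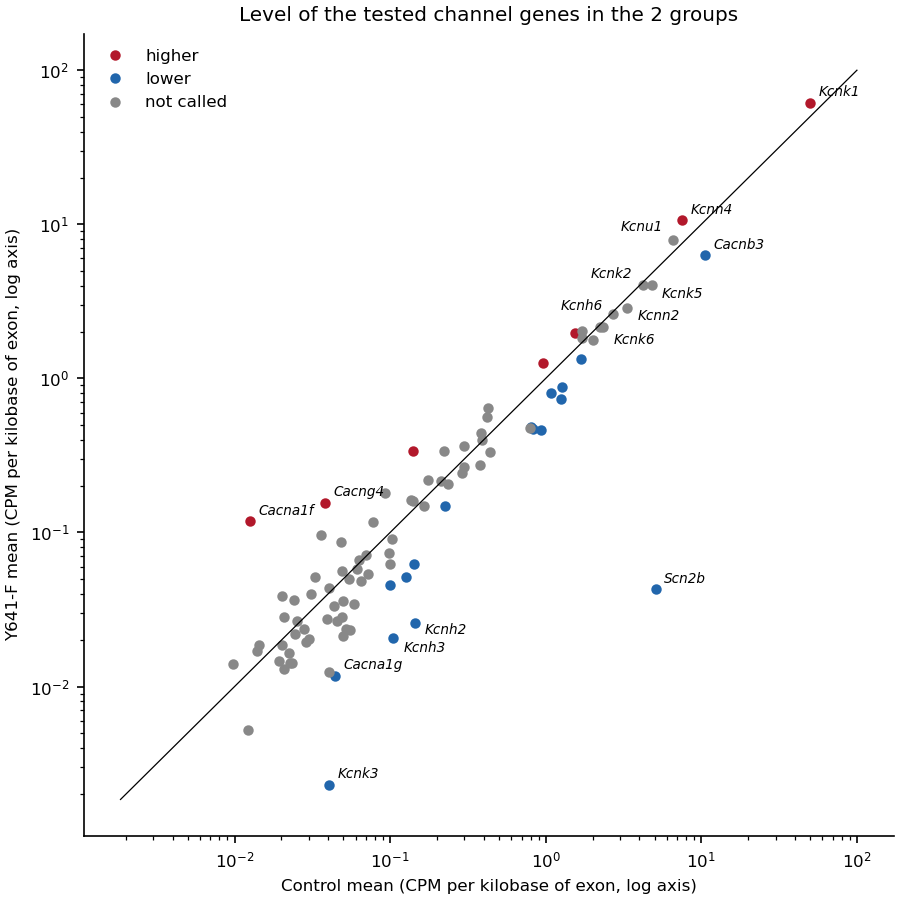
Mean level of 96 tested channel genes in Control (horizontal) and Y641-F cells (vertical), both in CPM per kilobase of exon on log axes, with a line of equality. *Kcnk1* stands at the top right at 50.2 and 61.5, and *Scn2b* lies far below the line at 5.08 and 0.0427.

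Of the 11 tested tandem-pore genes, *Kcnk3* was the 1 that fell, where 16.0% of all genes tested were lower. *Kcnk3* (TASK-1), an acid-sensitive leak channel, had 7, 12 and 20 counts in Control and 2, 0 and 0 in Y641-F cells, for a log2 fold change of -3.97 (SE 1.02, edgeR adjusted p = 0.0108). The value was -6.71 without Y641-F replicate 1, and the gene was below the filter without any 1 Control library. *Kcnk5* and *Kcnk2*, both above 4 CPM per kilobase in each group, had log2 fold changes of -0.26 (95% interval -0.48 to -0.029) and -0.052 (95% interval -0.28 to 0.18) and did not pass the test.
The EAG, ERG and ELK channels are voltage-gated potassium channels with a cyclic nucleotide-binding homology domain. Of 7 tested, 3 fell and 4 did not pass the test, where 16.0% of all genes tested were lower. *Kcnh2* (ERG1), which repolarizes the heart, had 27, 38 and 14 counts in Control and 4, 6 and 3 in Y641-F cells, for a log2 fold change of -2.46 (SE 0.565, edgeR adjusted p = 0.00569). *Kcnh3*, a channel of forebrain neurons, had 25, 37 and 28 against 0, 8 and 9 counts, a log2 fold change of -2.30 (SE 0.675, edgeR adjusted p = 0.0214). The call of *Kcnh3* was lost without Control replicate 2 (-2.15) or 3 (-2.31). *Kcnh1* (EAG1), known for its expression in tumours, had 28, 55 and 31 against 12, 19 and 16 counts, a log2 fold change of -1.17 (SE 0.399, edgeR adjusted p = 0.0418), and was -0.84 without Control replicate 2. Its call was lost without Control replicate 2 or 3 or Y641-F replicate 1 or 3 (-1.27 to -0.84). The most abundant member of this subfamily, *Kcnh6*, had 392 to 491 counts in Control and 303 to 498 in Y641-F cells, overlapping groups, and a log2 fold change of -0.060 (95% interval -0.38 to 0.26). At 2.72 CPM per kilobase in Control cells *Kcnh6* was far more abundant than *Kcnh2*, at 0.143, and *Kcnh1*, at 0.141.

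The classical delayed rectifier and A-type channels (Kv1 to Kv4) were mostly near or below detection, with 9 of 17 genes not tested. *Kcnd2*, an A-type channel of dendrites, fell from 24, 30 and 23 to 7, 14 and 8 counts, a log2 fold change of -1.30 (SE 0.454, edgeR adjusted p = 0.0463). Its call was lost when any library other than Y641-F replicate 2 was left out (-1.37 to -1.14). Of the silent subunits, which form no channel alone, 0 of 4 tested genes passed the test, among them *Kcns3*, the most abundant, with a log2 fold change of 0.26 (95% interval -0.062 to 0.59).
Of the 5 Kv7 genes, which carry slow currents that restrain excitability, *Kcnq5* rose from 425, 433 and 379 to 427, 450 and 608 counts, a log2 fold change of 0.36 (SE 0.126, edgeR adjusted p = 0.0493). The unscaled counts overlapped and the CPM values did not, and the call was lost without any 1 Control library (0.33 to 0.37) or without Y641-F replicate 3 (0.22). Of 8 tested auxiliary potassium channel genes 2 fell and 6 did not pass the test, where 16.0% of all genes tested were lower. The 2 that fell encode cytoplasmic beta subunits of Kv1 channels. *Kcnab3* had 133, 87 and 101 against 42, 59 and 49 counts, a log2 fold change of -1.0 (SE 0.246, edgeR adjusted p = 0.00842), and *Kcnab2* had 597, 615 and 524 against 465, 377 and 437 counts, a log2 fold change of -0.34 (SE 0.119, edgeR adjusted p = 0.0481). The call of *Kcnab2* was lost when any library other than Y641-F replicate 1 was left out (-0.38 to -0.25). *Kcnip4*, a calcium-binding subunit of A-type channels and the most abundant of this group per kilobase, had a log2 fold change of 0.092 (95% interval -0.26 to 0.44).
Inward rectifiers pass potassium more easily into than out of the cell and hold the resting potential. *Kcnj4* was the most abundant and fell from 158, 184 and 151 to 96, 94 and 80 counts, a log2 fold change of -0.76 (SE 0.184, edgeR adjusted p = 0.00737). *Kcnj14*, of the same Kir2 class, rose from 16, 14 and 10 to 35, 24 and 30 counts, a log2 fold change of 1.25 (SE 0.401, edgeR adjusted p = 0.0320). The call of *Kcnj14* was lost when any library other than Y641-F replicate 2 was left out (1.08 to 1.38). *Hcn2*, a pacemaker channel opened by hyperpolarization and cyclic AMP, fell from 120, 100 and 90 to 60, 51 and 52 counts, a log2 fold change of -0.82 (SE 0.224, edgeR adjusted p = 0.0148), which was not called without Control replicate 1 (-0.73) or Y641-F replicate 3 (-0.76). The 3 other *Hcn* genes did not pass the test.
Under every alternative setting tried and without any 1 library, *Scn2b*, *Scn3a*, *Scn8a*, *Cacnb3*, *Kcnab3*, *Kcnj4* and *Kcnn4* kept their calls. Besides left-out libraries and the stricter filter, other settings ended some calls. *Cacna1d* and *Kcnd2* lost theirs with no filter, the DESeq2 Wald test and the replicate block, and *Cacna1g* with that test and block. *Kcnab2* lost its call with DESeq2 size factors, the Wald test and the block, and *Kcnq5* with upper-quartile factors, limma-voom and the block. *Kcnh1* lost it with limma-voom and the block, *Cacng4* with upper-quartile factors and *Kcnj14* with the block. Of the 26 genes called, 11 share exon bases with a gene on the opposite strand, as do 69 of all 138 members. Among the 11 are *Kcnk1*, *Cacnb2*, *Kcnab2*, *Kcnab3*, *Kcnn1*, *Hcn2* and *Kcnh3*. *Kcnh3* shares 14 bases with *Mcrs1*, which had 1262 to 1689 counts per library, and the part of such reads was not tested.

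Proteins that bind or place these channels were also examined, from a list of 32 genes of which 29 were tested. Of these 29, 9 were lower, 3 higher and 17 not called, with a median log2 fold change of -0.24 (all genes -0.013). The 41.4% called compare with 31.6% of all genes tested and with 42.2% of those with a mean count of at least 30, a level that 20 of the 29 reached. *Lrrc26*, a gamma subunit that lets BK channels open near the resting potential of secretory epithelia, had 53, 56 and 58 counts in Control and 1, 0 and 8 in Y641-F cells. Its log2 fold change was -4.08 (SE 0.659, edgeR adjusted p = 5.88e-04), and -6.36 without Y641-F replicate 3. *Fgf11*, an intracellular FGF homologous factor of the family that binds sodium channel tails, had 562, 403 and 401 against 71, 81 and 34 counts, a log2 fold change of -2.77 (SE 0.267, edgeR adjusted p = 1.50e-05). For both genes the groups were far apart.
*Ank3* encodes ankyrin G, which anchors sodium channels in the membrane, and had 791, 819 and 710 against 462, 368 and 403 counts, a log2 fold change of -0.81 (SE 0.120, edgeR adjusted p = 3.28e-04). *Hap1*, a trafficking adaptor, had a log2 fold change of -0.68 (edgeR adjusted p = 0.00391). Among those that rose were the scarce *Stac2*, an adaptor of L-type calcium channels, and *Akap5*, an anchor of protein kinase A. *Stac2* had 4, 1 and 2 against 7, 13 and 16 counts and *Akap5* had 2, 6 and 2 against 14, 16 and 13 counts, with log2 fold changes of 2.39 and 2.17. The call of *Stac2* was lost without Control replicate 2 or 3 or without Y641-F replicate 3 (2.02 to 2.32), and that of *Akap5* without Control replicate 1 (1.89) or 3 (1.94). *Akap5* was at 2.84 without Control replicate 2.
The RE1 silencing complex represses many neuronal channel genes outside the nervous system. Of its 14 genes listed, 6 were lower, 1 was higher in Y641-F cells and 7 were not called. All 14 had a mean count of at least 30, where 21.0% of all genes were lower and 21.2% higher. *Rest*, the DNA-binding repressor itself, had 822, 840 and 728 against 606, 634 and 601 counts, a log2 fold change of -0.28 (SE 0.0952, edgeR adjusted p = 0.0444), and its corepressor *Rcor2* had a log2 fold change of -0.49 (edgeR adjusted p = 0.00214). The 1 that rose was *Sin3b*, with a log2 fold change of 0.23 (edgeR adjusted p = 0.0429). Calls of single genes of this list were not followed with libraries left out or under the other settings.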

How the data were processed

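RNA sequencing of 3 Control and 3 Y641-F libraries was used. The authors trimmed reads with fastp 0.20.1, mapped them to GRCm39 with STAR 2 and counted them with featureCounts 2.0.1, per the submitters' processing notes. The deposited values are raw whole-number read counts per gene, without normalization. Strand setting and annotation of this counting step: not given in the sources used here. Genes reaching 0.1 CPM in at least 3 libraries were kept, scaled by TMM and tested over 21043 genes with edgeR 4.0.16 (quasi-likelihood test, Benjamini-Hochberg adjustment over all of them) in R 4.3.3. A call is an adjusted p under 0.05. Exon lengths, positions and overlaps are from GENCODE vM39 on GRCm39, in which 137 of 138 members matched, with Python 3.11.15. The script was tested on simulated data.

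The members and lists were chosen with earlier results of these data known. Named are called members with a mean count of at least 30, up to 20 in each direction, the most abundant member per kilobase of each subfamily, all tested sodium channel genes, up to 4 called channel partners in each direction, and the most abundant gene of each marker list. Called members below that count and all other genes named lie outside this rule and were chosen after their values were seen. Results for some genes that the rule names are not reported here. The alternatives were DESeq2 1.42.0 size factors and Wald test, upper-quartile factors, no filter or a stricter filter, the likelihood ratio test of edgeR, limma-voom (limma 3.58.1), a replicate block and leaving out each library. All sample columns were used (0 left out).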

Additional observations from a re-analysis of the deposited data

How the results depend on the processing

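Calls among the 99 tested channel genes numbered 26 (19 lower, 7 higher). They were 25 with DESeq2 size factors, 24 with upper-quartile factors, 27 with no filter on low counts, 28 by the edgeR likelihood ratio test, 23 by the DESeq2 Wald test and 25 by limma-voom. A stricter filter of 1 CPM in 3 libraries left 42 members, of which 16 were called, 12 lower and 4 higher, and 3 passed the study's thresholds. With each library left out in turn, the calls ranged from 14 to 28, the lower ones from 12 to 19, the higher ones from 2 to 9, those past the study's thresholds from 11 to 16 and the median log2 fold change from -0.33 to -0.10. The calls were 16 without Control replicate 1, 16 without Control replicate 2, 14 without Control replicate 3 and 17 without Y641-F replicate 3, with 12 lower in each case, and the higher calls were 4, 4 and 2 without Control replicates 1, 2 and 3. Fewer libraries and genes entered those tests. For 5 named genes, none called, the sign of the log2 fold change turned when a library was left out: *Cacna2d3* ranged from -0.43 (without Y641-F replicate 2) to 0.044 (without Y641-F replicate 3), *Kcnh6* from -0.22 (without Y641-F replicate 3) to 0.071 (without Y641-F replicate 1, and 0.000232 without Control replicate 1), *Kcnip4* from -0.024 (without Y641-F replicate 3) to 0.19, *Scn10a* from -0.075 (without Control replicate 3) to 0.65 and *Scn9a* from -0.45 to 0.17 (without Control replicate 2, and 0.00234 without Y641-F replicate 3). The cause was not tested. With the replicate number as a block, 21 members were called, 15 lower and 6 higher. Same-numbered libraries had correlations of deviations of -0.11, -0.08 and 0.19, and differently numbered ones -0.19 to 0.23. Deviations were taken from the mean of the 3 libraries of a group, which ties these correlations to each other. They therefore cannot decide whether a number marks a shared batch. Counting depth limits the 57 members with a mean count below 30, whose intervals span several fold.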

Other observations

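Other genes of ion transport and its control were counted against the same background. Of all genes tested 31.6% were called, 16.0% lower and 15.6% higher. Of those with a mean count of at least 30, 42.2% were called. Of 22 tested calcium store and entry genes, 5 were lower, 3 higher and 14 not called, so that 36.4% were called. A mean count of at least 30 was reached by 19 of the 22. *Itpr2*, an inositol trisphosphate receptor that releases calcium from the endoplasmic reticulum, fell from 667, 590 and 562 counts in Control to 295, 239 and 269 with Y641-F, a log2 fold change of -1.08 (edgeR adjusted p = 6.72e-05). Of the ryanodine receptors 1 was lower, 1 higher and 1 not called. *Ryr2*, the cardiac form, had 45, 74 and 39 against 17, 23 and 26 counts (log2 fold change -1.15), and *Ryr1*, the skeletal muscle form, had 86, 88 and 77 against 148, 245 and 170 counts (log2 fold change 1.26, edgeR adjusted p = 6.78e-04). *Ryr3* had 153, 161 and 111 against 111, 118 and 129 counts, overlapping groups, and a log2 fold change of -0.15 (edgeR adjusted p = 0.590). *Orai1*, the pore of store-operated calcium entry, rose by a log2 fold change of 0.58, and *Atp2b4*, a calcium pump of the plasma membrane, had -1.54 on 4 to 35 counts.

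Of 13 tested sodium and potassium pump and epithelial sodium channel genes, 3 rose and 0 fell by edgeR, so that 23.1% were called. Of the 13, 6 had a mean count of at least 30. *Atp1b3*, a beta subunit of the sodium pump, had 5067, 5436 and 4885 counts in Control and 7440, 7432 and 7683 with Y641-F, a log2 fold change of 0.65 (edgeR adjusted p = 1.23e-04). The pump regulators *Fxyd3* and *Fxyd5* had log2 fold changes of 1.31 and 0.58. Of 24 chloride channel genes, 4 rose and 3 fell (29.2% called), and 16 of the 24 had a mean count of at least 30. *Ttyh3*, of the tweety family, fell from 3393, 3218 and 2860 to 1540, 1638 and 1448 counts, a log2 fold change of -0.93 (edgeR adjusted p = 1.79e-05). Volume-regulated channel subunits differed in direction, with *Lrrc8c* at a log2 fold change of 0.43 and *Lrrc8e* at -0.87.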
